A study of Mus musculus with 48 samples.

Results

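The hippocampus and the frontal cortex of wild-type (WT) mice were compared at postnatal week 1 (PWK 1). The comparison used the 4 WT hippocampal and the 4 WT cortical libraries of that age, 8 of the 48 libraries, taken by their column names. All mice were on the C57BL/6N background. The series also holds *Cyfip2*+/- mice, which carry 1 functional copy of *Cyfip2* and are labelled HT, and both genotypes at PWK 7 and PWK 14, with 4 mice per genotype and age. Both regions were dissected from both hemispheres of each mouse, and bulk RNA was sequenced from each region separately. The same replicate number in both regions was taken as the same mouse. The WT PWK 1 mice had received no agent, and the labels name no allele for them.

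The hippocampus is the folded edge of the cortical sheet. Its granule cells lie in the dentate gyrus, and its pyramidal neurons lie in fields CA1, CA2 and CA3, which pass signals on in sequence. The frontal cortex has neurons in 6 layers that differ in their targets and in the transcription factors they use. In the mouse, dentate granule cells are still being produced in the first postnatal week, whereas the birth of cortical projection neurons is over. Because whole tissue was sequenced, fewer cells of a type and less RNA per cell cannot be told apart in any of the values below.

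Each value is a normalized count, a read count per gene that the authors scaled between libraries with DESeq2. Normalized counts are not divided by gene length and were compared only within a gene. A difference is given as hippocampus minus cortex on the scale of log2(normalized count + 1), from limma, and a gene was called when its Benjamini-Hochberg adjusted p over all genes tested was under 0.05. The library sums were 30430000 to 30930000 in hippocampus and 31640000 to 32240000 in cortex, and since these are scaled values they do not show sequencing depth. Across genes, libraries of the same region correlated at 0.986 or more, and libraries of different regions at 0.97 or less. Hippocampal libraries 2 and 4 stood apart by their choroid plexus genes, and cortical library 3 by striatal and some other genes, as given below. As a check of the labels, *Cyfip2* averaged 11820 ± 832 in HT hippocampus and 13110 ± 731 in HT cortex at PWK 1 (SD, n = 4 each), below the WT means of 16670 ± 722 and 18560 ± 938.

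Of 16807 genes tested, 5671 (33.7%) were called, 2680 higher in hippocampus (15.9%) and 2991 higher in cortex (17.8%). The differences were mostly modest, with a median size of 0.44 on the log2 scale among called genes. At least a 2-fold difference was called for 632 genes higher in hippocampus (3.76%) and 474 higher in cortex (2.82%). The 4 values of one region did not overlap the 4 of the other in 5679 genes (33.8%). These shares are the background for every list below. The hippocampal side held the larger differences, as the plot of difference against level shows. The median difference over all genes was -0.0037.

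**Figure D1:**
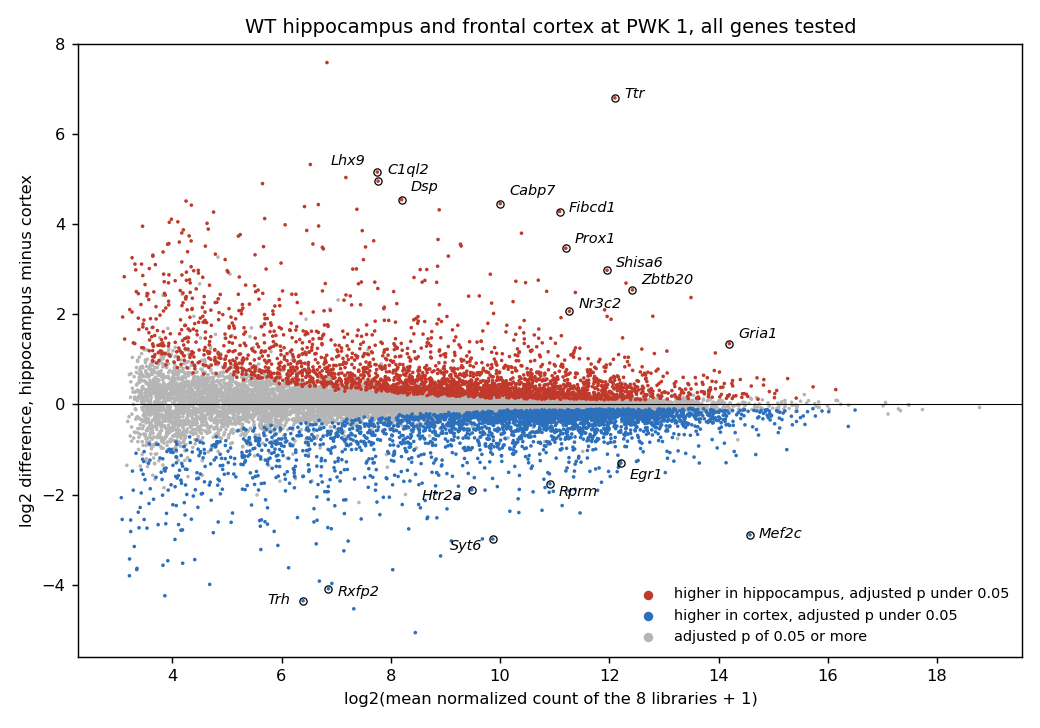
Log2 difference of each of the 16807 genes tested (vertical axis, hippocampus minus cortex) against its mean level over the 8 libraries (horizontal axis, on the same log2 scale). Red points are the 2680 genes called higher in hippocampus, blue points the 2991 called higher in cortex, grey points the rest. Circled genes are named in the text, and *Ttr* and *Mef2c* lie at the upper and lower right.

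The smallest p-values were ranked among called protein-coding genes with no overlap between regions and a mean of at least 100 in the higher region. Toward hippocampus the 5 smallest belonged to *Prox1*, *Cabp7*, *Fibcd1*, *Zbtb20* and *Nr3c2*. *Prox1* (chr1:190118035-190170714, GRCm38, minus strand) encodes the transcription factor that gives dentate granule cells their identity. Its normalized counts were 4109, 4421, 4733 and 4042 in hippocampal libraries 1 to 4 and 398, 378, 385 and 398 in cortical libraries 1 to 4. This is an 11.1-fold difference (log2 3.47 ± 0.06 SE, limma adjusted p = 4.69e-11), and every hippocampal value lay far above every cortical one. *Fibcd1* (chr2:31813290-31846005, minus strand), a marker of CA1 pyramidal neurons, had 3621, 4177, 4129 and 4661 in hippocampus and 193, 237, 244 and 179 in cortex, 19.4-fold apart (log2 4.28). *Cabp7*, a neuronal calcium-binding protein, had 1945, 2161, 2063 and 1683 in hippocampus and 70.4, 89.7, 97.1 and 98.0 in cortex (log2 4.46). For all 3 genes the spread within a region was small beside the gap between regions.

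*Zbtb20* (chr16:42875881-43642602, plus strand) is a transcriptional repressor needed for hippocampal neurons to take on their fate. Its counts were 9266, 9724, 10170 and 8360 in hippocampus against 1500, 1554, 1733 and 1641 in cortex, 5.84-fold apart. *Nr3c2* encodes the mineralocorticoid receptor, the high-affinity corticosteroid receptor for which the hippocampus is known. It had 3819, 4062, 4327 and 3748 in hippocampus and 976, 995, 886 and 938 in cortex, 4.21-fold apart.

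On the cortical side the 5 smallest p-values by the same rule belonged to *Rprm*, *Hs3st2*, *Ntm*, *Met* and *Garnl3*. *Rprm*, a gene used to mark deep-layer neurons, had 842, 893, 859 and 918 in hippocampus and 3097, 2876, 2906 and 3027 in cortex, 3.39-fold higher in cortex (log2 -1.76). *Hs3st2*, a heparan sulfate sulfotransferase, was 5.18-fold higher in cortex and the hepatocyte growth factor receptor gene *Met* 3.86-fold higher. *Ntm*, a cell adhesion molecule of the IgLON family, was 2.29-fold higher, and *Garnl3* 2.81-fold. Values without overlap were a condition for naming these 5 genes.

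*Mef2c* (chr13:83504034-83667080, plus strand), an activity-regulated transcription factor of excitatory neurons, combined a high level with a large difference. Hippocampal libraries 1 to 4 had 6790, 6905, 4471 and 5303, and cortical libraries had 43160, 42030, 44260 and 42270. It was 7.32-fold higher in cortex (log2 -2.89 ± 0.12, adjusted p = 1.29e-08), and the highest hippocampal value was far below the lowest cortical one.

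Among protein-coding genes with a mean of at least 100 in the higher region and no overlap, the 12 largest differences toward hippocampus were those of *Ttr*, *Lhx9*, *Dsc3*, *C1ql2*, *Dsp*, *Cabp7*, *Spink8*, *Chrm5*, *Slc9a4*, *Car12*, *Fibcd1* and *Lefty1*, from log2 6.80 down to 3.99. A pair of desmosome genes was among them, *Dsp* with 535, 690, 594 and 425 in hippocampus against 17.9, 20.1, 43.5 and 16.8 in cortex, and *Dsc3* with 236 to 333 against 2.96 to 25.2. The 12 largest toward cortex, from log2 -4.36 to -2.89, included those of *Trh*, *Rxfp2*, *Colq*, *Fam205a3*, *Hspb3*, *Gm11549*, *Aldh1a3*, *Atp6ap1l*, *Ramp3*, *Syt6* and *Mef2c*. *Trh*, the thyrotropin-releasing hormone precursor, had 6.49, 7.14, 7.15 and 6.08 in hippocampus and 166, 133, 207 and 132 in cortex. It passed the filter on low values only through cortex. *Aldh1a3*, which makes retinoic acid, was 9.46-fold higher in cortex, and the receptor activity-modifying protein gene *Ramp3* 8.07-fold. *Fam205a3* rested on less, since its hippocampal values ran from 0 to 177 (adjusted p = 0.0453), and its call was lost without any 1 cortical library or hippocampal library 4.

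**Figure D2:**
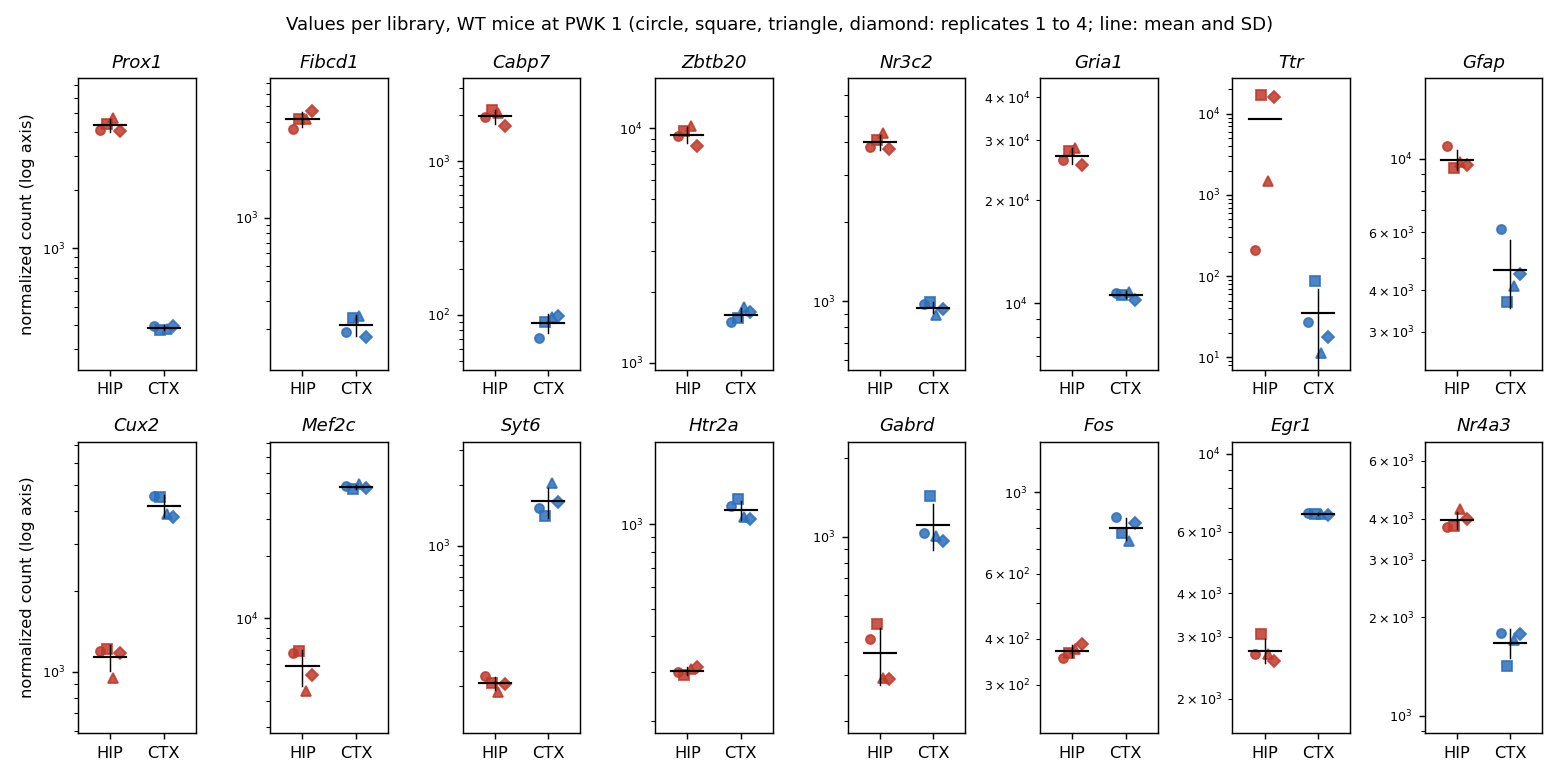
Normalized counts of 16 genes (vertical axes, log scale, 1 panel per gene) in the 4 hippocampal and 4 cortical WT libraries at PWK 1. Points are libraries (circle, square, triangle and diamond for replicates 1 to 4), the horizontal line is the mean and the bar the SD, with no bar for *Ttr* in hippocampus, where the SD exceeds the mean. Hippocampal and cortical points do not overlap in any panel, and the hippocampal *Ttr* points lie between 208 and 17070.

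Genes that mark the hippocampal fields were mostly, but not all, higher in hippocampus. Of 20 dentate granule neuron genes tested, 11 were called higher in hippocampus and 4 higher in cortex, with a median difference of 0.64. *C1ql2*, a secreted synaptic organiser of mossy fibres, had 442, 496, 388 and 359 in hippocampus and 12.6, 11.4, 12.3 and 13.8 in cortex, 33.6-fold apart. *Igfbpl1*, expressed by newly made neurons, averaged 1139 against 110 (log2 3.52), and the proneural factor *Neurod1* 1363 against 390.0 (log2 1.80). The 4 members higher in cortex were *Npnt* (log2 -1.91), *Pdzd2* (-1.43), *Dgkh* (-0.39) and *Fam163b* (-0.38). *Npnt*, an extracellular matrix protein, had 1374, 1958, 1397 and 1264 in hippocampus and 5577, 6337, 4876 and 5451 in cortex. The granule cell marker *Calb1*, encoding calbindin, averaged 2422 and 2144, was not called, and had overlapping values.

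Of 13 CA1 genes, 9 were higher in hippocampus and 2 higher in cortex (median 1.13). Among the 9, *Dcn* (log2 1.76) is also in the meningeal list given below. *Spink8*, a protease inhibitor gene, had 177, 207, 196 and 192 in hippocampus and 9.18, 17.1, 7.29 and 3.20 in cortex. It failed the filter on low values without hippocampal libraries 2 and 4, so the filter favoured a call toward hippocampus. The orphan receptor gene *Gpr161* was 6.68-fold higher in hippocampus, and *Lefty1*, a Nodal inhibitor, 14.0-fold. Of 12 CA2 genes tested, 6 were higher in hippocampus and 2 in cortex (median 0.63). The largest of the 6, *Sostdc1* (log2 2.05), is also in the choroid plexus list given below. *Rgs14*, a regulator of G-protein signalling that limits plasticity in CA2, averaged 1150 and 486, 2.36-fold apart, whereas *Pcp4* was 2.01-fold higher in cortex (log2 -1.01) and *Adcy1* averaged 25920 and 51970. Of 14 CA3 genes, 8 were higher in hippocampus and 3 in cortex (median 0.87). *Slc9a4*, a sodium/proton exchanger gene, had 289, 301, 389 and 287 against 14.5, 11.6, 17.3 and 15.7, and the kainate receptor subunit gene *Grik4* 1899, 2198, 2011 and 2050 against 791, 790, 701 and 696.

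Of 19 genes of cortical layer neurons, 11 were higher in cortex, 3 were higher in hippocampus and 5 were not called (median -0.41). The upper-layer factor *Cux2* (chr5:121856366-122050102, minus strand) had 1196, 1213, 947 and 1176 in hippocampus and 4513, 4506, 3880 and 3779 in cortex, 3.68-fold higher in cortex, with no overlap. The deep-layer factor *Foxp2* was 6.90-fold higher in cortex, *Rorb* of layer 4 averaged 463 against 1124, and *Tbr1* of layer 6 was 2.22-fold higher. Members of the list also moved the other way. *Nr4a2*, an orphan nuclear receptor, had 2187, 1710, 2131 and 2635 in hippocampus and 333, 262, 497 and 245 in cortex, 6.48-fold higher in hippocampus. *Crym* was 3.89-fold and *Bcl11b*, known for subcerebral projection neurons, 1.99-fold higher in hippocampus. *Fezf2*, which acts with *Bcl11b* in those neurons, was nearly level, with 1482, 1281, 1515 and 1623 against 1524, 1282, 1482 and 1613.

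Of 13 Cajal-Retzius cell genes, 8 were higher in hippocampus and 3 in cortex (median 1.06). These early-born neurons of the cortical surface secrete reelin and are lost from the neocortex after birth sooner than from the hippocampus. *Nhlh2* had 199, 165, 198 and 201 in hippocampus and 7.81, 8.77, 18.3 and 12.7 in cortex, *Trp73* had 158 to 208 against 13.7 to 52.0, and the LIM factor *Lhx1* averaged 31.2 against 5.05. *Lhx1* and *Lhx5*, 2 of the 8, had cortical means under the filter value of 10 (5.05 and 3.83). Both failed the filter without hippocampal libraries 2 and 4, so the filter favoured a call toward hippocampus for them. *Reln* itself, which interneurons also make, averaged 6724 and 7599 and was not called (adjusted p = 0.0928), but it was called higher in cortex with the replicate number as a block (adjusted p = 0.0015).

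Of 24 GABAergic interneuron genes, 4 were higher in hippocampus and 9 higher in cortex (median -0.21), and 11 were not called. *Vip*, a neuropeptide of disinhibitory interneurons, had 317, 284, 234 and 245 in hippocampus and 770, 855, 556 and 624 in cortex, 2.60-fold higher in cortex. *Npy* averaged 812 and 1367. *Sst* moved the other way, with 3982 to 4481 against 3016 to 3426 (1.30-fold higher in hippocampus), as did the GABA-synthesising enzyme gene *Gad1* (5520 against 4071). The summed level of the list was nearly the same in both regions, 44570 to 45360 in hippocampus and 44510 to 45770 in cortex. Without hippocampal libraries 2 and 4, the number higher in cortex was 5.

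**Figure D3:**
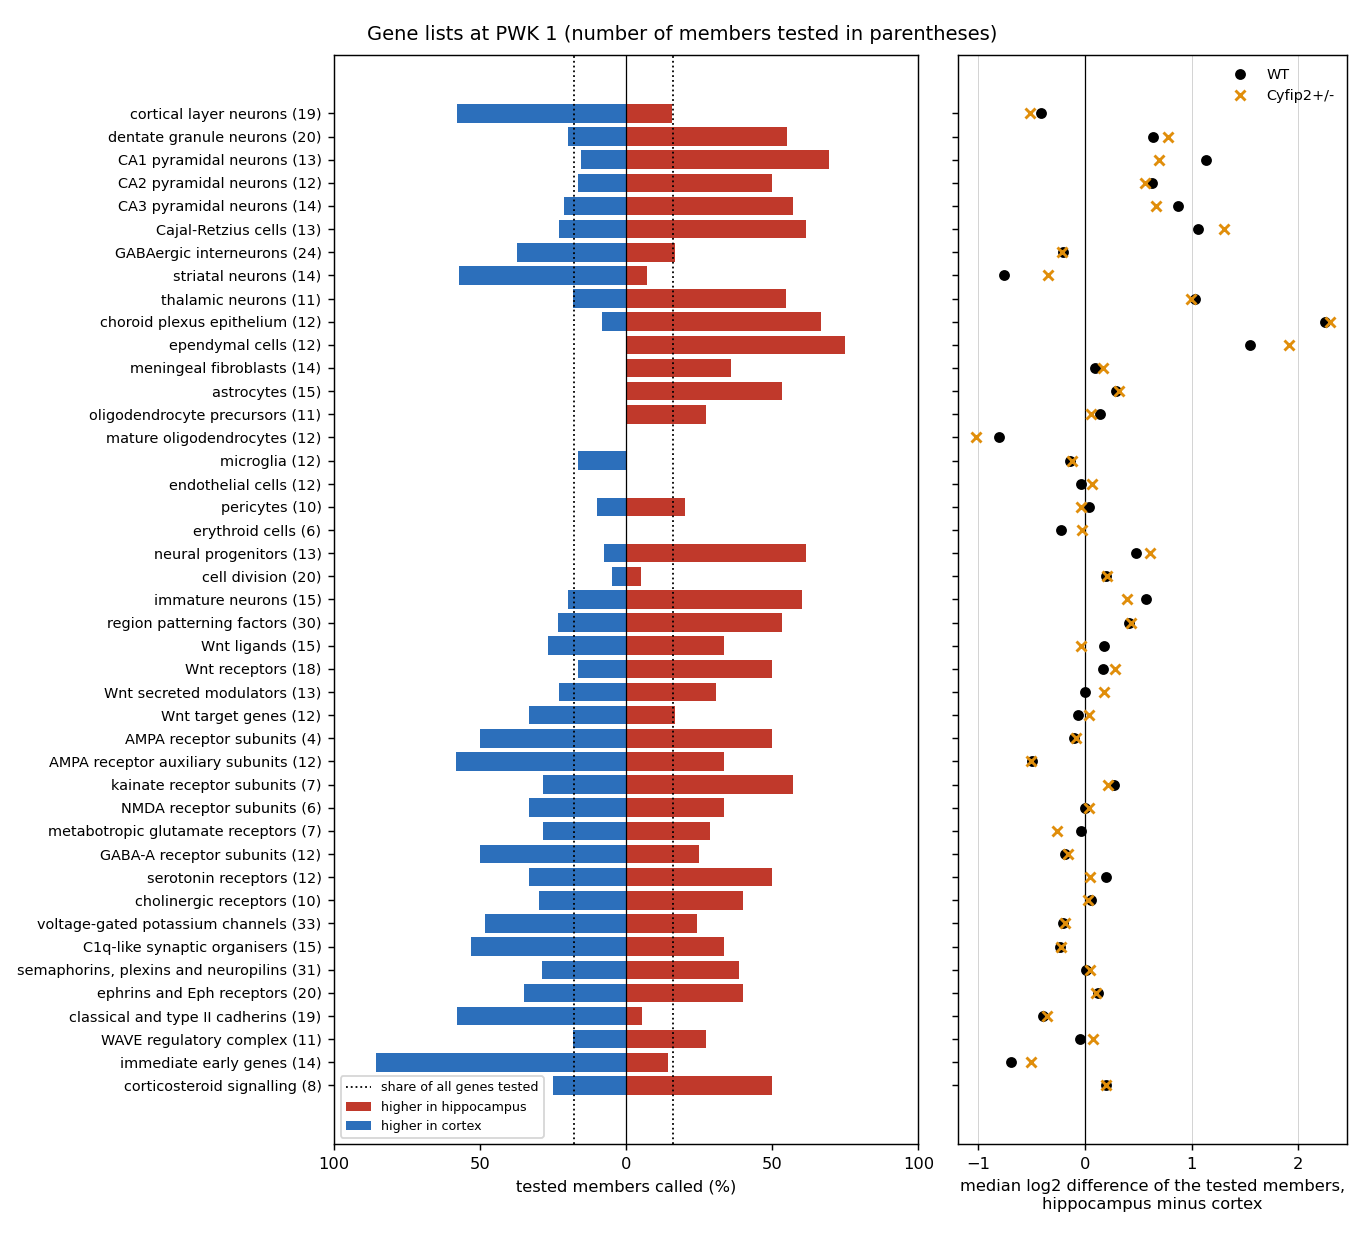
Left, share of the tested members of each gene list (%) called higher in cortex (blue, to the left) or higher in hippocampus (red, to the right), with dotted lines at the shares of all genes tested, 17.8% and 15.9%. Right, median log2 difference of the tested members in WT (black) and HT mice (orange crosses). The immediate early genes reach furthest to the left, with 12 of 14, and the ependymal genes furthest to the right, with 9 of 12.

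Markers of tissue next to the dissected regions differed too. Of 12 choroid plexus genes tested, 8 were called higher in hippocampus and 1 higher in cortex (median 2.25), but the hippocampal libraries were unlike each other. *Ttr*, the transthyretin gene that is a main product of the choroid plexus, had 208, 17070, 1500 and 16240 in hippocampal libraries 1 to 4 and 27.0, 86.0, 11.3 and 17.7 in cortex (log2 6.80 ± 1.21). The summed list was 3015, 24480, 4223 and 22280 in hippocampus, against 4761 to 6369 in cortex, but most of the cortical sums was *Enpp2*, the member higher in cortex, which oligodendrocytes also make. Without *Enpp2* the sums were 887, 19110, 2284 and 18110 in hippocampus and 261 to 404 in cortex, so all 4 hippocampal libraries lay above cortex and libraries 2 and 4 were the highest. Without hippocampal libraries 2 and 4, 4 choroid plexus genes were called higher in hippocampus (2 of the 8, *Folr1* and *Cldn2*, then failed the filter on low values and were not tested), *Ttr* was at log2 4.36, and 1785 genes in all were called higher in hippocampus (10.9% of 16393) and 2308 higher in cortex (14.1%).

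Of 12 ependymal genes, 9 were higher in hippocampus and none in cortex (median 1.54). *Foxj1*, the factor that switches on motile cilia, had 354, 298, 238 and 210 in hippocampus and 142, 113, 96.8 and 99.0 in cortex, 2.44-fold apart. The count was also 9 without hippocampal libraries 2 and 4, but not of the same genes. *Tmem212*, called with all libraries, was then not tested. Of 14 striatal neuron genes, 8 were higher in cortex and 1 in hippocampus (median -0.76). The dopamine receptor gene *Drd1* had 115, 103, 113 and 128 in hippocampus and 319, 389, 577 and 344 in cortex. Summed striatal genes were 5311 to 5576 in hippocampus and 8406, 9828, 13470 and 8325 in cortical libraries 1 to 4, the third being high. Of 11 thalamic neuron genes, 6 were higher in hippocampus and 2 in cortex (median 1.03). Those in cortex were *Foxp2* (log2 -2.76) and *Rora* (-0.65), and *Tcf7l2*, *Rgs16* and *Six3* were not called. Members are shared with other lists, *Prkcd* with CA3, *Calb2* with Cajal-Retzius cells and immature neurons, and *Foxp2* with cortical layers. *Lhx9*, a LIM factor of the early thalamus and the largest difference of the list, had 368, 366, 494 and 445 in hippocampus and 6.93 to 18.2 in cortex. Of 14 meningeal genes, 5 were higher in hippocampus and none in cortex (median 0.09), and 3 without libraries 2 and 4. No list had a member at 0 in all 8 libraries, and the part that adjoining tissue had in the differences was not tested.

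Among glia, astrocyte genes leaned to hippocampus. Of 15, 8 were higher in hippocampus and none higher in cortex (median 0.29). *Gfap*, the intermediate filament of astrocytes and of neural stem cells, had 10920, 9382, 9740 and 9601 in hippocampus and 6112, 3691, 4115 and 4498 in cortex, 2.15-fold apart. The glutamate transporter gene *Slc1a3* was 1.44-fold higher in hippocampus, whereas *Slc1a2*, the other glial transporter, averaged 84760 and 86000 and was not called. Of 12 microglial genes, 2 were higher in cortex, *P2ry12* (log2 -0.30) and *Tmem119* (-0.36), and none in hippocampus. None of 12 endothelial genes was called, with differences of -0.17 to 0.18, and none of 6 erythroid genes. Of 10 pericyte genes, 2 were higher in hippocampus and 1 in cortex. Of 11 oligodendrocyte precursor genes, 3 were higher in hippocampus, *C1ql1* (0.53), *Pdgfra* (0.44) and *Cspg4* (0.29), and none in cortex.

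Genes of mature oligodendrocytes depended on the pairing of the libraries. All 12 averaged less in hippocampus (median -0.80), but none passed the unpaired test, since mice differed widely. *Mbp*, encoding myelin basic protein, had 18700, 25990, 13410 and 6523 in hippocampal libraries 1 to 4 and 23120, 38510, 22290 and 18840 in cortical libraries 1 to 4. The ranges overlapped, yet within each number the cortical value was the higher one, and number 2 was highest and number 4 lowest in both regions. With the replicate number as a block, 10 of the 12 were called higher in cortex (*Mbp* adjusted p = 0.0034). In the unpaired test 10 were called without hippocampal library 2, 1 without hippocampal libraries 2 and 4, and 0 without any other single library. The block also took the oligodendrocyte precursor genes higher in hippocampus from 3 to 5, the cell division genes from 1 to 3, the astrocyte genes higher in cortex from 0 to 2 and the erythroid genes higher in cortex from 0 to 3.

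Of 13 neural progenitor genes tested, 8 were higher in hippocampus, 1 was higher in cortex and 4 were not called (median 0.48). *Neurog2*, a proneural factor, averaged 77.3 ± 10.9 in hippocampus and 12.9 ± 2.78 in cortex (SD, n = 4 each). *Hopx*, a homeodomain protein of quiescent stem cells and astrocytes, had 1626, 1715, 1646 and 1661 against 598, 553, 500 and 530. *Eomes*, the factor of intermediate progenitors, was not called. Its hippocampal values were 143, 111, 198 and 146, and its cortical values were 7.78, 19.4, 288 and 24.3, so cortical library 3 lay above all others. That library also stood apart in *Calb2* (1362 against 619 to 693 in the other cortical libraries) and *Lgr5* (230 against 94.1 to 97.2). Of 20 cell division genes, 1 was called in each direction, *Mcm6* higher in hippocampus (log2 0.25) and *Mcm5* higher in cortex (-0.41), and *Mki67* averaged 591 and 475 with overlapping values.

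Of 15 immature neuron genes, 9 were higher in hippocampus and 3 in cortex (median 0.57). Among the 9, *Igfbpl1* and *Neurod1* are also in the dentate list. *Draxin*, an axon guidance protein, had 347, 409, 562 and 482 in hippocampus and 87.0, 51.9, 92.0 and 85.3 in cortex. *Sox11* was 2.28-fold higher in hippocampus. *Nhlh1*, also among the 9, averaged 38.7 against 7.30. It failed the filter on low values without hippocampal libraries 2 and 4, so the filter favoured a call toward hippocampus. *Dcx*, the general marker of young neurons, averaged 6210 and 6077 and was not called. The microtubule regulator gene *Stmn1* went the other way, with 12830, 11910, 13320 and 14140 in hippocampus and 27240, 24600, 26200 and 29610 in cortex (2.06-fold higher in cortex).

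Of 30 transcription factors linked to the patterning of the cortical sheet, 16 were higher in hippocampus, 7 higher in cortex and 7 were not called (median 0.41). *Emx2*, which favours the medial and posterior sheet that includes the hippocampus, had 472, 423, 578 and 485 in hippocampus and 218, 237, 252 and 226 in cortex (2.10-fold), while its paralog *Emx1* was 1.62-fold higher in cortex, with 338 to 370 against 522 to 601. The COUP-TF pair also split. *Nr2f2* was 3.40-fold higher in hippocampus, whereas *Nr2f1* averaged 1839 and 1983 and was not called (log2 -0.11). *Dmrt3*, a medial factor, averaged 28.9 ± 15.3 in hippocampus and 0.793 ± 0.990 in cortex. It passed the filter on low values only through hippocampus, so it could be called in that direction alone. All 3 nuclear factor I genes of the list were higher in hippocampus, *Nfib* (log2 0.95), *Nfia* (0.84) and *Nfix* (0.44). *Meis2* was 2.40-fold and *Tshz3* 1.82-fold higher in cortex. *Sp8*, an anterior factor, averaged 52.4 and 127 and was called higher in cortex only with the block (adjusted p = 0.0041).

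Wnt signalling patterns the medial edge of the sheet, from which the hippocampus arises. Of 15 Wnt ligands tested, 5 were higher in hippocampus and 4 higher in cortex, so the family had no common direction (median 0.18). *Wnt9a* had 129, 168, 120 and 130 in hippocampus and 768, 809, 751 and 791 in cortex, 5.71-fold higher in cortex. *Wnt9b*, its paralog, had 32.4, 38.0, 40.7 and 21.9 against 3.11, 1.15, 2.04 and 0, *Wnt11* had 30.5 to 70.9 against 3.61 to 9.86, and *Wnt2* 157 to 202 against 38.9 to 68.3. Of 18 receptor genes, 9 were higher in hippocampus, led by *Ror1* (log2 1.29) and *Fzd7* (0.74), and 3 higher in cortex. *Fzd10* was the largest of these, with 26.1, 43.8, 27.4 and 24.9 in hippocampus and 207, 242, 181 and 203 in cortex. Of 13 secreted modulators, 4 were higher in hippocampus, and 3 in cortex, *Dkkl1* (-1.65) the most. Among the 4 was *Sostdc1* (2.05), which is also in the choroid plexus list and had 109, 208, 111 and 188 in hippocampal libraries 1 to 4, highest in libraries 2 and 4. Of 12 target genes, 2 were higher in hippocampus and 4 in cortex. *Nkd2* averaged 598 and 221 (1.45), *Axin2* 890.1 and 1034 (-0.22), and *Tcf7l1*, at 0.29, was not called with the block (adjusted p = 0.0732). Without hippocampal libraries 2 and 4, 5 receptors were called higher in hippocampus. *Wnt9b* and *Wnt11* passed the filter on low values only through their hippocampal values, so they were not tested without a hippocampal library.

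The subunits of glutamate receptors split between regions. AMPA receptors carry fast excitatory transmission. *Gria1* (chr11:57011387-57330244, plus strand), encoding GluA1, had 26280, 27930, 28410 and 25400 in hippocampus and 10730, 10570, 10820 and 10250 in cortex, 2.55-fold apart. *Gria2*, whose subunit blocks calcium entry, was 1.13-fold higher in hippocampus, while *Gria3* was 1.42-fold and *Gria4* 1.30-fold higher in cortex. All 4 genes were called, and none had overlapping values. Of 12 AMPA receptor auxiliary subunits, 4 were higher in hippocampus and 7 in cortex (median -0.50). *Shisa6*, which holds receptors at the synapse, had 6595, 6503, 8218 and 6918 in hippocampus and 769, 754, 1142 and 952 in cortex (7.81-fold). The TARP genes went both ways, *Cacng8* 1.85-fold higher in hippocampus and *Cacng3* (log2 -1.61) and *Cacng2* (-0.55) higher in cortex. *Cacng5* (log2 0.37) was called only with the block (adjusted p = 0.0371).

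Among 7 kainate receptor genes, *Grik4* (log2 1.45), *Grik2* (0.47), *Neto1* (0.38) and *Grik1* (0.27) were higher in hippocampus, and *Grik3* (-0.94) and *Neto2* (-0.67) higher in cortex. *Neto1* and *Neto2* encode paired auxiliary subunits and differed in opposite directions. NMDA receptor genes differed less. Of 6 tested, *Grin2c* (0.47) and *Grin2a* (0.37) were higher in hippocampus, *Grin1* (-0.26) and *Grin2d* (-0.39) higher in cortex, and *Grin2b*, the main juvenile subunit, averaged 22800 and 22110 and was not called. Of 7 metabotropic receptor genes, 2 were called in each direction, from *Grm5* (0.42) to *Grm8* (-1.07).

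Of 12 GABA-A receptor subunit genes, 3 were higher in hippocampus and 6 higher in cortex (median -0.18). *Gabra5*, a subunit of tonic inhibition concentrated in hippocampus, had 6609, 6711, 7078 and 6879 in hippocampus and 3610, 3395, 3897 and 4000 in cortex (1.83-fold). *Gabra2* averaged 5747 and 2881. *Gabrd*, another tonic subunit and one that dentate granule cells use in the adult, went the other way, with 410, 466, 290 and 288 in hippocampus and 1032, 1437, 1011 and 968 in cortex (3.06-fold higher in cortex). *Gabra3* was 1.69-fold higher in cortex.

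Of 12 serotonin receptor genes tested, 6 were higher in hippocampus and 4 in cortex. *Htr2a* had 299, 290, 308 and 312 in hippocampus and 1162, 1230, 1061 and 1045 in cortex (3.72-fold higher in cortex), while *Htr2c* had 1845 to 2538 against 544 to 765 (3.63-fold higher in hippocampus). *Htr5b* was 6.58-fold higher in hippocampus, and *Htr1a*, the autoreceptor subtype that pyramidal neurons also carry, averaged 786 against 369. Of 10 cholinergic receptor genes, 4 were higher in hippocampus and 3 in cortex. The muscarinic receptor gene *Chrm5* had 145, 142, 196 and 165 in hippocampus and 5.15, 3.46, 10.3 and 10.3 in cortex, and the nicotinic subunit gene *Chrna5* was 4.41-fold higher in hippocampus.

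Of 33 voltage-gated potassium channel genes, 8 were higher in hippocampus and 16 higher in cortex (median -0.20). The silent subunits, which modify other channels and carry no current alone, included large differences both ways. *Kcnv1* had 798, 877, 686 and 802 in hippocampus and 2987, 2914, 2717 and 2708 in cortex (3.58-fold), *Kcnf1* averaged 2070 and 6215, and *Kcng2* was 4.43-fold higher in hippocampus. *Kcnh5* averaged 106 and 484, and the A-type channel genes *Kcnd2* and *Kcnd3* were both higher in hippocampus (log2 0.58 each).

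Of 19 cadherin genes, 11 were higher in cortex and 1, *Cdh9* (log2 0.44), which CA3 mossy fibre synapses need, was higher in hippocampus (median -0.39). *Cdh13* had 3323, 3255, 3313 and 3687 in hippocampus and 8201, 7240, 8349 and 8899 in cortex, and *Cdh7* averaged 224 and 638. The block took the number higher in hippocampus to 2. Of 31 semaphorin, plexin and neuropilin genes, 12 were higher in hippocampus and 9 in cortex. Both semaphorin co-receptor genes were higher in hippocampus, *Nrp2* with 4132, 4160, 4934 and 4827 against 766, 684, 975 and 810 and *Nrp1* at 3.80-fold. The semaphorin gene *Sema3a* was 4.26-fold higher in cortex, and *Sema3e* 2.91-fold higher in hippocampus. Of 20 ephrin and Eph genes tested, 8 were higher in hippocampus, led by *Epha6* (5.31-fold), and 7 in cortex, led by *Ephb6* (3.31-fold). Of 15 C1q-like organisers and their receptors, 5 were higher in hippocampus and 8 in cortex. All 3 neurexin genes were slightly higher in cortex (log2 -0.21 to -0.31), and *Cbln4* was 6.74-fold higher in hippocampus.

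Of 8 corticosteroid signalling genes, 4 were higher in hippocampus and 2 in cortex. The glucocorticoid receptor gene *Nr3c1* went opposite to *Nr3c2*, with 2236, 2409, 2076 and 2080 in hippocampus and 2665, 3018, 2641 and 2530 in cortex (1.23-fold higher in cortex, adjusted p = 0.0037). *Fkbp5*, a chaperone that is induced by the receptor, was 1.65-fold higher in hippocampus, whereas *Sgk1* and *Tsc22d3*, also induced, were not called (log2 -0.05 and -0.03).

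*Cyfip2*, the gene altered in the HT mice, and its paralog *Cyfip1* encode alternative subunits of the WAVE regulatory complex, which promotes branched actin. *Cyfip1* (chr7:55841745-55932602, plus strand) had 4017, 3876, 3807 and 4017 in hippocampus and 2385, 2716, 2451 and 2488 in cortex, 1.56-fold higher in hippocampus (log2 0.65 ± 0.05, adjusted p = 1.1e-06). *Cyfip2* (chr11:46193850-46312859, minus strand) had 16940, 17410, 16610 and 15700 in hippocampus and 18740, 19740, 17490 and 18280 in cortex, 1.11-fold higher in cortex (log2 -0.15 ± 0.05, adjusted p = 0.0219). The *Cyfip1* values lay far apart, whereas the closest *Cyfip2* values, 17410 and 17490, almost met. The *Cyfip2* call was lost under quantile normalization (adjusted p = 0.246) and without cortical library 1 or 2 or hippocampal library 4 (adjusted p up to 0.0658). The Abi pair split likewise, *Abi1* 1.33-fold higher in hippocampus and *Abi2* 1.26-fold higher in cortex. *Nckap1* was higher in hippocampus (log2 0.22). The other 6 of the 11 genes were not called, and of these *Wasf3* (0.12, adjusted p = 0.0275) and *Brk1* (-0.10, adjusted p = 0.0301) were called with the block.

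Immediate early genes, which neurons switch on within minutes of activity or other stimuli, were mostly higher in cortex. All 14 were called, 12 higher in cortex and 2 higher in hippocampus (median -0.70). Many are switched on by the factor CREB, which binds the cAMP response element TGACGTCA or its shorter form TGACG. In RefSeq promoters (GRCm38.p6), 10 of the 14 genes had an entry, with 14 promoters, but not *Egr1*, *Egr3*, *Arc* or *Ier2*. TGACG, on either strand, lay within 250 bases upstream of the start in 12 of the 14 promoters and in all 10 genes, against 17.7% of all 32817 promoters. TGACGTCA lay in 2 genes, *Btg2* and *Dusp1*, against 1.55% of all promoters, and each such match also counts as a match to TGACG. These windows are shown for 3 genes higher in cortex and for *Btg2*, called higher in hippocampus, because the same element stood in genes of both directions. Capitals mark TGACG or its reverse complement, or the full element in *Btg2*. The windows are chr12:85473640-85473889 (plus strand) for *Fos*, chr15:101266596-101266845 (plus strand) for *Nr4a1*, chr6:85513590-85513839 (minus strand) for *Egr4* and chr1:134079156-134079405 (minus strand) for *Btg2*, each read 5′ to 3′ on the strand of the gene and overlapping no annotated exon. A match is a description of the letters and not a measured binding site.
Fos: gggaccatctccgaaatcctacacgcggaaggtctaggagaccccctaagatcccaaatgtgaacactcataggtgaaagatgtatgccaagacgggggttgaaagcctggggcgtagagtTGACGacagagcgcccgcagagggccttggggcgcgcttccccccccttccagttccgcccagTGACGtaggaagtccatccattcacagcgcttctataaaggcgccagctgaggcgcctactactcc
Nr4a1: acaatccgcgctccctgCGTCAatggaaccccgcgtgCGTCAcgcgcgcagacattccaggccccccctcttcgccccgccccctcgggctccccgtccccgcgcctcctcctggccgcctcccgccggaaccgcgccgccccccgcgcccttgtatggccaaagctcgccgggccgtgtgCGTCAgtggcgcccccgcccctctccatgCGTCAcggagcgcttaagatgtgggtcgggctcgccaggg
Egr4: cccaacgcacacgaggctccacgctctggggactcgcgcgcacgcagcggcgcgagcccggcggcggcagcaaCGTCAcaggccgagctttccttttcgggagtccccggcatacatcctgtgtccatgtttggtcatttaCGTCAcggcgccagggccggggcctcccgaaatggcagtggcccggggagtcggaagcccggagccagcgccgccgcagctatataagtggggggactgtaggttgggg
Btg2: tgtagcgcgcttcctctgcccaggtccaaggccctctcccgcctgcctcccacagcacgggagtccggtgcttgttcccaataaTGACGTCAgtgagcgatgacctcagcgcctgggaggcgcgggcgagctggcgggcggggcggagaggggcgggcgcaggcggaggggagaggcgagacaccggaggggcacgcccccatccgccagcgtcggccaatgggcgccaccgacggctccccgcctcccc

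*Fos*, a subunit of the AP-1 factor, had 355, 365, 375 and 387 in hippocampus and 857, 775, 735 and 823 in cortex, 2.15-fold higher in cortex. *Egr1*, a zinc-finger factor, had 2684, 3049, 2687 and 2552 in hippocampus and 6773, 6754, 6743 and 6689 in cortex, 2.46-fold higher. *Egr2* was 3.06-fold, *Egr4* 1.95-fold, *Nr4a1* 1.79-fold and *Npas4*, which responds to calcium entry, 1.74-fold higher in cortex. *Arc*, an effector at synapses, had 1867, 1883, 1531 and 1451 in hippocampus and 2518, 2545, 1911 and 1932 in cortex, 1.32-fold higher in cortex (adjusted p = 0.0205), without overlap but with libraries 1 and 2 high in both regions.

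The 2 members higher in hippocampus were *Nr4a3* and *Btg2*. *Nr4a3*, an orphan receptor related to *Nr4a1* and *Nr4a2*, had 3769, 3810, 4288 and 3992 in hippocampus and 1789, 1420, 1701 and 1784 in cortex, 2.37-fold higher in hippocampus. *Btg2*, an antiproliferative gene, was only just called, with 461, 473, 507 and 438 against 473, 326, 378 and 315, which overlap (adjusted p = 0.0426), and its call was lost when any library but cortical library 1 was left out. The Nr4a family split, with *Nr4a2* and *Nr4a3* higher in hippocampus and *Nr4a1* higher in cortex. The summed list was 15050 to 16090 in hippocampus and 21060 to 22460 in cortex. The labels give no order of dissection, and any delay between the regions cannot be told apart from region.

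Some long noncoding RNAs differed as well, and those named here were chosen after their values were seen. Of 898 lincRNA and antisense genes tested, 232 were called, a smaller share than the 33.7% over all genes. Of these, 109 were higher in hippocampus and 123 higher in cortex, each also below the share over all genes (15.9% and 17.8%). *Gm26644* had 233, 188, 277 and 204 in hippocampus and 0, 0, 0.840 and 0 in cortex. *Gm34466* had 156 to 194 against 2.07 to 5.76, and *A830009L08Rik* 3.58 to 31.0 against 255 to 329. *Gm26644* and *Gm34466* passed the filter on low values only through hippocampus. *Emx2os*, antisense to *Emx2*, was higher in hippocampus in step with it (log2 1.24 and 1.06), and reads of overlapping genes may be shared between them. *Trbc2*, a T-cell receptor constant gene, had 10.54 to 33.0 in hippocampus and 615 to 764 in cortex (log2 -5.06).

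The same contrast in the HT mice of PWK 1 used other animals and no shared library. There 6272 of 16769 genes (37.4%) were called, 2892 higher in hippocampus and 3380 in cortex. Of the 5610 genes called in WT and tested in HT, 5547 (98.9%) had the same direction, and 4527 (80.7%) were also called in that direction. Among genes not called in WT, 73.3% had the same direction. Across the 16558 genes tested in both, the differences correlated at r = 0.892, a description over genes that are not independent. *Upp2*, a uridine phosphorylase gene, was the 1 gene called in opposite directions (log2 0.35 in WT and -0.33 in HT).

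Leading genes had similar differences in the HT mice. *Prox1* differed by 3.47 in WT and 3.42 in HT, *Gria1* by 1.35 and 1.33, *Mef2c* by -2.89 and -2.83, and *Nr4a3* by 1.25 in both. *Cyfip1* differed by 0.65 and 0.66, and *Cyfip2* by -0.15 in both, although its level was lower in HT mice. *Arc* was at -0.40 and 0.03. The region by genotype interaction was called for 0 of 17371 genes (smallest limma adjusted p 0.979), and 835 genes had an unadjusted p under 0.05, where 869 would be expected by chance, so no difference between genotypes in the region contrast was detectable with 4 mice per group.

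**Figure D4:**
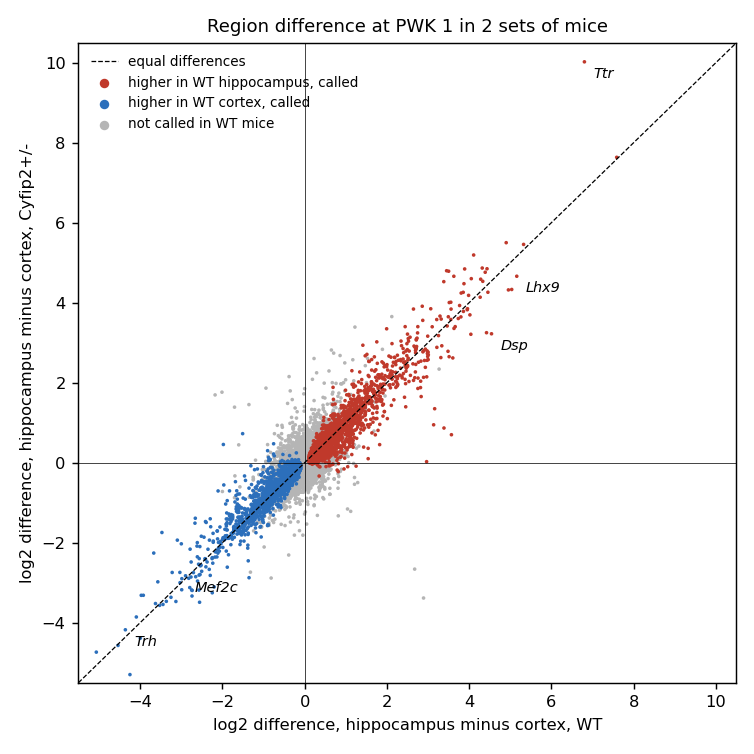
Log2 difference between hippocampus and cortex in HT mice (vertical axis) against that in WT mice (horizontal axis) at PWK 1, 1 point per gene tested in both. Coloured points are the genes called in WT, and 98.9% of them lie on the same side of 0 in both genotypes.

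The region difference changed with age for many genes. The test of the change from PWK 1 to PWK 7 called 2864 of 17686 genes (16.2%), and that from PWK 1 to PWK 14 called 2252 of 17699 (12.7%). Both tests use the same PWK 1 libraries. Of the 5671 genes called at PWK 1, 1650 changed by PWK 7, 347 toward a smaller difference, 873 toward a larger one and 430 to the opposite sign. Of the last group, 175 were also called in the new direction at PWK 7. By PWK 14, 1366 had changed, 298 smaller, 632 larger and 436 opposite in sign, of which 147 were called in the new direction.

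Of the 20 dentate genes, 17 changed by PWK 7 and 15 by PWK 14, and their median went from 0.64 at PWK 1 to 1.33 and 1.23. *C1ql2* went from 4.96 to 7.60 and 6.93, and *Dsp* from 4.54 to 7.81 and 6.87. *Npnt*, higher in cortex at PWK 1 (-1.91), was near level later (-0.11 and 0.28). *Adcy1*, a calmodulin-stimulated adenylyl cyclase and higher in cortex at PWK 1, likewise came to -0.03 and -0.15. Of the GABA-A genes 9 of 12 changed by PWK 7, and *Gabra5* went from 0.87 to 1.67 and 1.81 while *Gabra3* went from -0.76 to -1.67 and -1.60. *Gabrd*, at -1.62, was at -1.80 and -1.79, with no change called.

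Some PWK 1 differences were absent later. *Chrna5* went from 2.13 to -0.05 and -0.04, and *Cbln4* from 2.82 to -0.49 and -0.03, with a change called at both ages. *Sst* went from 0.38 to -0.15 and -0.01, and *Slc1a3* from 0.53 to 0.12 and -0.04. *Prox1* went from 3.47 to 3.32 and 2.98, with a change called at PWK 14, and *Nr2f2* from 1.76 to 1.90 and 1.75, with none called. Of the immediate early genes 3 changed by PWK 7 and 4 by PWK 14, and their median was -1.34 at PWK 7 and -1.09 at PWK 14, so cortex was higher at all 3 ages. *Arc* was at -1.68 and -1.13.

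**Figure D5:**
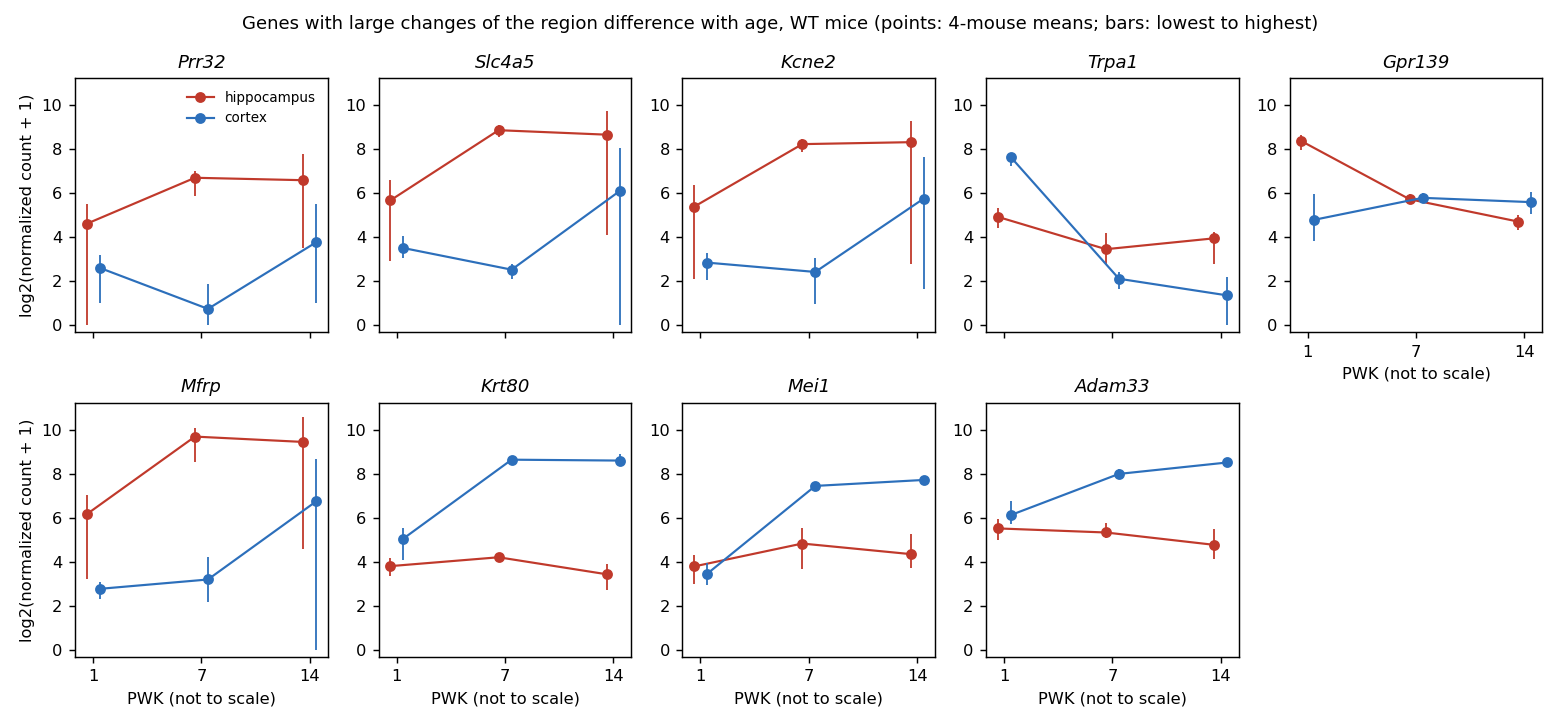
Log2 of normalized counts + 1 of 9 genes (vertical axes) in WT hippocampus and cortex at PWK 1, 7 and 14 (horizontal axis, ages not to scale). Points are means of 4 libraries and bars run from the lowest to the highest library. The regional means of *Trpa1*, *Gpr139* and *Mei1* change order between PWK 1 and PWK 14, and the PWK 1 bars of *Mei1* overlap.

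*Trpa1*, an irritant-sensing ion channel, averaged 29.4 ± 7.79 in hippocampus and 199 ± 36.4 in cortex at PWK 1 (SD, n = 4 each), and by PWK 14 it had fallen to 14.5 ± 5.79 and 1.57 ± 1.49, so its difference changed by 5.41. *Gpr139*, an orphan receptor, averaged 328 ± 62.2 and 26.6 ± 23.5 at PWK 1 and 25.2 ± 5.28 and 47.2 ± 15.8 at PWK 14, a change of -4.70. *Krt80*, *Mei1* and *Adam33* changed by -4.01 to -3.26 with higher cortical means at PWK 14 than at PWK 1.

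From PWK 1 to PWK 7 the largest increases of the difference were those of *Prr32* (5.09), *Slc4a5* (5.01) and *Kcne2* (4.11), with *Mfrp* at 3.89. *Slc4a5* and *Kcne2*, transport genes of the choroid plexus, stood at 6.67 to 95.2 and 3.30 to 82.2 in hippocampus at PWK 1 and at 371 to 552 and 232 to 351 at PWK 7. At PWK 14 they ran from 16.2 to 855 and 5.87 to 624. Summed choroid plexus genes also varied among the PWK 1 hippocampal libraries, as above, and the part of that tissue in these changes was not tested.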

How the data were processed

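Bulk RNA was sequenced from hippocampus and frontal cortex in 48 libraries, of which the 8 WT libraries of PWK 1 are the subject, with the HT libraries of PWK 1 and the WT libraries of PWK 7 and PWK 14 for comparison. By the submitters' processing notes, the authors used Salmon 0.11.2, GRCm38, R 3.6.0 and DESeq2 1.19.11, while the study's methods name other versions. The labels name a stranded mRNA kit and the methods a stranded total RNA kit. The signal that the authors deposited is a DESeq2-normalized count per gene. Only 0.879% of the values were whole within 0.001, so reads were not recovered, no count model was run and depth is unknown.

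Gene IDs were matched to GENCODE release M21 (18414 of 18428). Values were tested as log2(normalized count + 1) with limma 3.58.1 in R 4.3.3 (linear models with moderated variances that follow the mean, two-sided), on genes at 10 or more in at least 4 of the libraries fitted, with Benjamini-Hochberg adjustment over all genes at 0.05. Region by genotype and region by age were contrasts of 4 group means. Differences on the log2(value + 1) scale understate low genes, and folds are ratios of group means. Each mouse gave both regions and the same number was taken as the same mouse, which the labels do not state. Deviations from the group means correlated by 0.0516, 0.163, 0.173 and 0.168 for numbers 1 to 4. Between different numbers the correlations ran from -0.134 to 0.0682. Hippocampal library 1 correlated more with cortical library 2 (0.0682) than with cortical library 1, so the values do not set number 1 apart as a pair. The main fit took the 8 libraries as independent, and the replicate block was an alternative, because the pairing is not stated. The study's methods use no block, but its bulk comparisons were between genotypes within a region, where pairing of regions does not arise. The p-values measure the spread between these mice. The fitting code was tested on simulated data with known changes.

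The named genes were *Cyfip1* and *Cyfip2*, the 12 largest differences and 5 smallest p-values in each direction among called protein-coding genes with no overlap and a mean of at least 100 in the higher region, up to 4 called members of each of 43 gene lists, all members of some, and the 6 largest called age interactions. Some genes that this rule names are not reported here. Other list members were named after their values were seen. The members and lists were chosen with earlier results of these data known, so no test was run over a list. Promoters were from RefSeq. Pseudocounts, filters, scalings, variance models, the block and leaving out libraries were tried as alternatives.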

Additional observations from a re-analysis of the deposited data

Results flagged for a closer look

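Single libraries stood apart from the other 3 of their group by Dixon's criterion in 37 of 590 groups of 4 values tested, where chance gives about 1 in 20. In hippocampal library 1 these were *Slc17a6* (1957, others 1707 to 1742), *Slc1a3* (24200, others 22670 to 22890) and *Tfap2c* (34.26, others 47.02 to 48.88). In hippocampal library 2 they were *Iyd* (158.4, others 83.96 to 96.34), *Nhlh2* (165.1, others 198.5 to 201.1) and *Fzd10* (43.79, others 24.92 to 27.41), with the sums of the Cajal-Retzius list (14190, others 15320 to 15540) and of the Wnt target list (7428, others 7745 to 7793). In hippocampal library 3 they were *Slc9a4* (388.8, others 287.0 to 300.7), *Dmrt3* (51.69, others 19.54 to 22.83), *Lef1* (140.0, others 191.0 to 197.5), *Zbtb18* (21560, others 18750 to 19170), *Fzd2* (172.1, others 212.1 to 214.2), *Chrna5* (446.3, others 352.7 to 365.8) and the sum of the semaphorin list (85210, others 79590 to 80040). In hippocampal library 4 they were *Hs3st2* (416.3, others 355.7 to 365.8), *Cpne7* (10190, others 8111 to 8448), *Id2* (1845, others 2044 to 2070), *Wnt10b* (37.89, others 19.03 to 20.88), *Epha6* (1029, others 1390 to 1449), *Cdh13* (3687, others 3255 to 3323) and the sum of the CA3 list (25330, others 23380 to 23710).

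In cortical library 1 only *Emx1* stood apart among the genes and sums tested (522.5, others 597.1 to 600.8). In cortical library 2 *Draxin* (51.94, others 85.27 to 92.03), *Lrp6* (1568, others 1742 to 1775), *Grin3a* (3379, others 3837 to 3908), *Gabrd* (1437, others 968.0 to 1032) and *Hsd11b1* (519.7, others 415.0 to 426.7) did. In cortical library 3 the genes were *Dsp* (43.45, others 16.75 to 20.14), *Calb2* (1362, others 618.8 to 692.8), *Meis1* (188.2, others 59.29 to 75.60), *Id4* (853.6, others 814.6 to 817.3), *Lgr5* (230.5, others 94.08 to 97.19) and *Htr2c* (764.6, others 543.9 to 547.2), with the sum of the thalamic list (6289, others 4753 to 4946), and each of these 7 lay above the other cortical values. In cortical library 4 *Rxfp2* (251.5, others 202.6 to 210.7) and the sum of the AMPA subunit list (40550, others 43170 to 43590) stood apart.

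The region difference of some genes differed between ages by the limma test of the interaction. From PWK 1 to PWK 7 it changed by 5.09 for *Prr32*, 5.01 for *Slc4a5*, 4.11 for *Kcne2*, 4.00 for *Trpa1*, -3.92 for *Gpr139* and 3.89 for *Mfrp* on the log2 scale. From PWK 1 to PWK 14 it changed by 5.41 for *Trpa1*, -4.70 for *Gpr139*, -4.01 for *Krt80*, -3.77 for *Mei1* and -3.26 for *Adam33*. A positive change is toward hippocampus. *Trpa1* and *Gpr139* are in both sets, which share the PWK 1 libraries.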

How the results depend on the processing

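The numbers of called genes stayed within 1.5 times of those reported under every alternative run, with the exception of hippocampal libraries 2 and 4 left out together, an alternative chosen after seeing the data, which gave 1785 genes higher in hippocampus. Leaving out single libraries gave 2215 to 2615 genes higher in hippocampus and 2584 to 2838 higher in cortex. Hippocampus held 47.3% of the calls, and 43.6% to 51.7% under the alternatives. With the replicate block 3049 and 3514 genes were called, with 84 calls lost and 976 gained, 6831 genes were called in HT mice, and the age interactions gave 3552 (PWK 7) and 2725 (PWK 14); beside the calls and list counts given with the results the block moved no count by over 1.5 times. The age interactions gave 2690 to 3552 and 2158 to 3077 genes, and the genotype interaction 0 throughout. Of 252 named genes 212 were called. Single genes were followed only under a pseudocount of 10, median-of-ratios and quantile scaling, the replicate block and leaving out libraries. Under these alternatives 185 of the 212 were called wherever they were tested, and none reversed. Leaving out a library ended the calls of *Cspg4*, *Tmem119*, *Axin2*, *Mcm6*, *Tcf7l1* and *Fam205a3* at least once (limma adjusted p up to 0.1215), and that of *Enpp2* among the choroid plexus genes. It also ended those of *Cyfip2*, *Col3a1*, *Abcc9*, *Pdgfrb*, *Wnt16*, *Fzd4*, *Fzd9*, *Lgr4*, *Dkk3*, *Rspo2* and *Shisa7* at least once (limma adjusted p up to 0.1378, for *Wnt16*). Of 1118 list counts recomputed under the alternatives used for single genes, 1024 stayed within 1.5 times. Genes above the filter through their hippocampal values alone were not tested when a hippocampal library was left out, which lowers those counts. TMM scaling was replaced by upper-quartile scaling and no count model was run, because the values are not counts. Depth is unknown, so the precision of low genes cannot be given.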

Other observations

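The cell type lists also differed in how the regions compared at later ages, given here as medians of the region difference with no test over a list. The median of the mature oligodendrocyte genes went from -0.80 at PWK 1 to 0.35 at PWK 7 and 0.32 at PWK 14, and an age interaction was called for 4 of 12 by PWK 7 and 1 of 12 by PWK 14. The median of the cortical layer genes went from -0.41 to -0.75 and -0.85, and that of the Cajal-Retzius genes from 1.06 to 0.51 and 0.34. The choroid plexus genes went from 2.25 to 4.82 and 3.50, and the thalamic genes from 1.03 to 0.61 and 0.12. The ependymal genes stood at 1.54, 1.97 and 1.59, with 1 interaction called by PWK 7 and 0 by PWK 14.

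In HT mice, lists whose WT calls were nearly all called again in the same direction included the cortical layer genes (14 of 14), the dentate genes (15 of 15), the patterning factors (23 of 23) and the ependymal genes (9 of 9). Fewer were called again among the Wnt target genes (2 of 6), the cell division genes (0 of 2) and the microglial genes (0 of 2). Those lists held few WT calls, and no test compared lists. Of the immediate early genes, 12 of 14 were called again, beside 80.7% of all genes called in WT and tested in HT. *Eomes*, not called in WT mice, was called in HT mice (log2 2.12 in WT and 3.65 in HT).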
